A study of Mus musculus with 12 samples.

Results

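The elastic fiber and fibulin genes are 10 genes of the extracellular matrix: Eln, Fbn1, Fbn2, Fbln1, Fbln2, Fbln5, Efemp1, Efemp2, Mfap2 and Mfap5. They were chosen by symbol, as the probe sets that the platform annotation pairs with exactly 1 of these names. Of the 10 genes, 8 had such a probe set, against 18193 genes named on the whole array, and these 8 genes were covered by 16 of the 45037 probe sets. Fbn1 and Efemp2 were not analysed here. Each gene was read from the probe set with the highest mean over all 12 arrays, and its other probe sets served as a check. All 8 genes passed the filter on low values, for which 3 or more of the 12 arrays had to exceed their median signal. Fbln5 passed it only with arrays of the stages where it was high.

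The arrays followed mouse CGR8 embryonic stem (ES) cells, a line derived from the blastocyst's inner cell mass, through guided cardiac differentiation in culture. The 4 stages were ES-LIF(+), ES-LIF(-), CP and CM. ES-LIF(+) were undifferentiated cells kept with leukemia inhibitory factor (LIF), the cytokine that holds mouse ES cells in the pluripotent state. ES-LIF(-) were the same cells after 48 h without LIF. CP were cardiopoietic cells, which the study describes as progenitors committed to a cardiac fate, and CM were the derived cardiomyocytes. Both CP and CM came from ES cells stimulated with a cocktail of growth factors and cytokines that included BMP, TGFβ, FGF and VEGF. CP cells were then held for 5 days in 3% serum with 30 ng/ml of TNFα, and CM cells for 9 days in 20% serum without it, and each was enriched on a density gradient. Serum, TNFα, time and stage therefore changed together and cannot be told apart. The cultures of a stage were sampled independently, per the methods. Each stage had 3 arrays, and that number limits the precision of every value. All cells descend from 1 line.

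Elastic fibers give arteries, lung, skin and heart valves their recoil. Their core is elastin, secreted as soluble tropoelastin, and it is laid down on a scaffold of microfibrils built from fibrillins and decorated by the small microfibril-associated glycoproteins. Fibulins bridge the scaffold and the core, and lysyl oxidases cross-link tropoelastin into the insoluble polymer. In the heart, elastic fibers are found mainly in the great vessels, the valves and the coronary walls, where smooth muscle cells and fibroblasts make them.

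Promoter sequence is shown for Fbln1, Fbln2, Fbln5, Efemp1 and Mfap2. On their brightest probe sets these genes rose in both CP and CM, and no difference between CP and CM was called. RefSeq promoter windows matched 5 of the 8 measured genes, these 5. Each line gives the 250 bases before an annotated start site in GRCm38.p6, 5′ to 3′ on the gene's own strand. Where a gene had more than 1 start, the window with more CpG dinucleotides was printed. Capitals mark the GC box (GGGCGG, or CCGCCC on the other strand), a motif bound by Sp1-type factors in many promoters without a TATA box. The windows were chr15:85205758-85206007 (+) for Fbln1, chr6:91212514-91212763 (+) for Fbln2, chr12:101819120-101819369 (-) for Fbln5, chr11:28852955-28853204 (+) for Efemp1 and chr4:141010431-141010680 (+) for Mfap2.
Fbln1: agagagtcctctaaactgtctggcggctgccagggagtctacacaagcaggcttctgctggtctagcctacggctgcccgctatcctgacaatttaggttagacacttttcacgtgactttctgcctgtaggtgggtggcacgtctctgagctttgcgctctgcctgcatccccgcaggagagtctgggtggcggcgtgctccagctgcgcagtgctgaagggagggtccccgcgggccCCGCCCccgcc
Fbln2: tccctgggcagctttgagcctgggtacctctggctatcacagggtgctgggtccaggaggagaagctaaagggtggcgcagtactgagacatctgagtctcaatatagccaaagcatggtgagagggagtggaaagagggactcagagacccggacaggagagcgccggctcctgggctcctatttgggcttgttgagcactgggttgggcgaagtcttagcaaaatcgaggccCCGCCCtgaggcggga
Fbln5: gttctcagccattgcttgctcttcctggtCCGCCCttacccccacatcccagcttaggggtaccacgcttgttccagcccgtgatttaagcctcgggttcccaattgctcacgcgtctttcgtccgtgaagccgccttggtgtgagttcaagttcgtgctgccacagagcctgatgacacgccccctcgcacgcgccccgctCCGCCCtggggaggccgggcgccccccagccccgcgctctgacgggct
Efemp1: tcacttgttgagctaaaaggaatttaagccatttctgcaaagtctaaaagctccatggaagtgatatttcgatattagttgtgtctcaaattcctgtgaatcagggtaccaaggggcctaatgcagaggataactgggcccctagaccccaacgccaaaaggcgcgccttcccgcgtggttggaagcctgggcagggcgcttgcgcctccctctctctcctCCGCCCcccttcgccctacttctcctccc
Mfap2: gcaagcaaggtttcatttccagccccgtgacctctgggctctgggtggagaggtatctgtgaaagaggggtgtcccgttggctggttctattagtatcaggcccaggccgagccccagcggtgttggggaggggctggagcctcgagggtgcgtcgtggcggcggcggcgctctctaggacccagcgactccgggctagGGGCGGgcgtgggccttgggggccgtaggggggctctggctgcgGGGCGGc
Each of these 5 windows held at least 1 GC box, and those of Fbln5 and Mfap2 held 2. Over all 32851 windows of the same length, 32.7% held the motif. The other windows of Fbln1, Fbln5 and Mfap2 held none, so the match turned on the start site taken. No printed window held the TATA box TATAAA, which stood in 12.4% of all windows on either strand. The same search for the AP-1 motif TGACTCA, the MCAT motif CATTCC and the SMAD element GTCTAGAC, found in 4.46%, 12.6% and 0.167% of all windows, matched none of the 5, and the E-box CACGTG, found in 6.02%, matched that of Fbln1 at 1 place. The printed windows were 53.6% to 68.8% G or C with 8 to 21 CpG dinucleotides, and the unprinted ones of Fbln1, Fbln5 and Mfap2 were 46.4%, 49.6% and 51.2% G or C with 7, 6 and 5, so these values follow from the choice of window. The arrays carry no readout of promoter activity, and the matches are given only as a description of the sequence.

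Every measured gene was higher in CP than in ES-LIF(+), and all but Mfap5 were higher in CM than in ES-LIF(+). A gene was called changed where its fold exceeded 1.5 and its adjusted p was below 0.05 (limma, Benjamini-Hochberg adjustment over all 26083 tested probe sets), with fold changes taken on log2(signal + 16). By that rule 8 of 8 genes rose in CP, where 30.9% of all tested probe sets were called, 19.3% higher and 11.6% lower. In CM 7 of 8 rose, against 47.7% called and 26.2% called higher and 21.6% called lower among all tested probe sets. Both counts include Fbln5, which passed the filter only with CP or CM arrays. After LIF withdrawal alone 1 of 8 was called, against 6.97% of all (3.19% higher, 3.77% lower), and between CP and CM 3 of 8 were called, against 18.2% of all. The median log2 fold change of the 8 genes was 1.70 in CP and 2.50 in CM relative to ES-LIF(+), where the median over all tested probe sets was 0.09 and 0.10. All 8 also passed the moderated F test over the 4 stages, which 68.7% of all probe sets passed. The study reports that the derived progenitors and cardiomyocytes were mostly pure, which these arrays do not measure. In RNA pooled from many cells, fewer cells of a type and less RNA per cell cannot be told apart.

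The level of the median probe set differed between stages, at 101 to 110.9 on the ES-LIF(+) arrays, 104.3 to 110.2 on ES-LIF(-), 128.9 to 136.3 on CP and 127.7 to 144.1 on CM. Centring every array on its median lowered each log2 change relative to ES-LIF(+) by 0.28 in CP and 0.32 in CM, and moved the share of higher calls among all called probe sets from 62.5% to 33.5% in CP and from 54.8% to 35.6% in CM. Under that scaling the same comparisons still called 8 and 7 of the 8 genes, all higher.

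**Figure D1:**
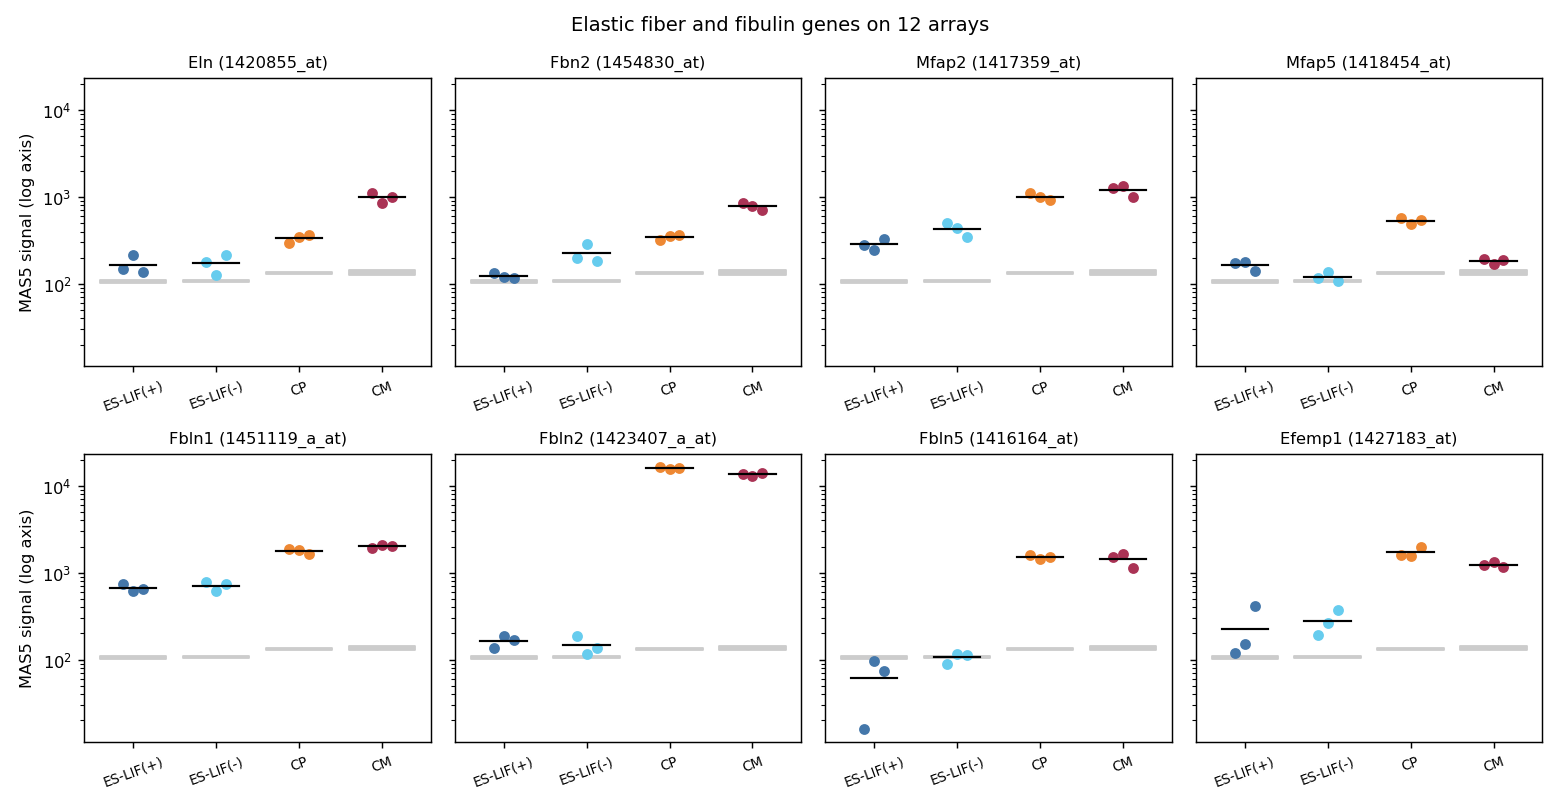
MAS5 signal (log axis) of the 8 measured elastic fiber and fibulin genes on each of the 12 arrays, by stage, with probe set names in the panel titles. Points are arrays, black lines are stage means and grey bands span the array medians of a stage; the CP and CM points of Fbln2 lie at 13107.6 or above while all its ES points lie at 187.1 or below.

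Elastin itself reached its highest signal in CM. Eln (1420855_at) read 147.4, 214.6 and 137.7 on the 3 ES-LIF(+) arrays and 179.1, 127.2 and 217.4 on the ES-LIF(-) arrays. It read 299.3, 347.8 and 365.5 in CP and 1104.4, 850.6 and 1012.1 in CM. The 2 ES stages overlapped, every CP array lay above every ES array, and every CM array lay above every CP array. Eln was 1.96-fold higher in CP than in ES-LIF(+) (log2 fold change 0.97, SE 0.20, adjusted p = 0.0011 by limma) and 5.57-fold higher in CM (log2 fold change 2.48, adjusted p = 5.67e-08). From CP to CM it rose a further 2.84-fold (log2 fold change 1.50, SE 0.20, adjusted p = 4.72e-05). The difference between ES-LIF(-) and ES-LIF(+) was 0.06 on the log2 scale, with a 95% interval from -0.38 to 0.49.

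Among the microfibril genes, the mean signal of Fbn2 increased over the 4 stages, Mfap2 rose by CP and then levelled, and Mfap5 was high in CP only. Fbn2 encodes fibrillin-2, the fibrillin of embryonic and fetal tissues. Its probe set 1454830_at read 133.6, 119.6 and 117.8 in ES-LIF(+), 201.0, 286.9 and 185.6 in ES-LIF(-), 318.3, 353.8 and 369.0 in CP and 859.2, 790.8 and 703.7 in CM. No 2 neighbouring stages overlapped, though the step from ES-LIF(-) to CP was not tested. Relative to ES-LIF(+), Fbn2 was 1.70-fold higher in ES-LIF(-) (log2 fold change 0.76, SE 0.17, adjusted p = 0.00818 by limma), 2.60-fold higher in CP and 5.72-fold higher in CM (adjusted p = 1.01e-05 and 7.02e-09). The step from CP to CM was 2.20-fold (log2 fold change 1.14, adjusted p = 0.000114). The call in ES-LIF(-) was lost when only those 2 stages were fitted (adjusted p = 0.0674) and when ES-LIF(-) replicate 2, the highest of that stage, was left out (log2 fold change 0.58).

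Mfap2 encodes microfibril-associated glycoprotein 1, which binds fibrillin and tropoelastin. Its signals were 279.1, 245.7 and 328.7 in ES-LIF(+), 499.1, 437.2 and 347.8 in ES-LIF(-), 1099.9, 1012.8 and 919.4 in CP and 1262.2, 1352.4 and 998.4 in CM (1417359_at). The ES stages did not overlap with each other or with CP, whereas CP and CM overlapped. Mfap2 was 3.43-fold higher in CP and 4.05-fold higher in CM than in ES-LIF(+) (adjusted p = 3.17e-07 and 2.68e-08, limma). In ES-LIF(-) its adjusted p was 0.0287 but its fold of 1.47 stayed under the threshold. The change from CP to CM was 0.24 on the log2 scale (95% interval -0.09 to 0.57, adjusted p = 0.265).

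Mfap5 encodes microfibril-associated glycoprotein 2, the second member of that pair. It read 172.1, 178.0 and 142.0 in ES-LIF(+), 117.3, 136.3 and 109.1 in ES-LIF(-), 572.6, 486.5 and 547.4 in CP, and 190.8, 167.8 and 186.3 in CM (1418454_at). All CP arrays stood clear of every other array, and CM overlapped ES-LIF(+). The gene was 3.07-fold higher in CP than in ES-LIF(+) (log2 fold change 1.62, SE 0.17, adjusted p = 2.37e-06 by limma) and 2.79-fold lower in CM than in CP (log2 fold change -1.48, SE 0.17, adjusted p = 1.2e-05). Between CM and ES-LIF(+) the log2 difference was 0.14 (95% interval -0.23 to 0.51, adjusted p = 0.508), and its sign turned when the arrays were centred on their medians (-0.18) or quantile normalized (-0.22). On the brightest probe set of each gene, Mfap5 alone among the 8 genes was called lower in CM than in CP.

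On the brightest probe set of each gene, Fbln2 and Fbln5 had the largest changes of the 8 genes in CP and in CM relative to ES-LIF(+). Fbln2 encodes fibulin-2, which binds fibrillin and tropoelastin and is made in the embryonic heart by the endocardial cushions and the great vessels. On its probe set 1423407_a_at it read 135.5, 185.9 and 168.6 in ES-LIF(+) and 187.1, 115.1 and 134.9 in ES-LIF(-). It read 16411.6, 15823.4 and 16103.4 in CP, and 13651.7, 13107.6 and 14152.8 in CM. The ES arrays were a single overlapping group not far above the array medians, and the CP arrays all lay above the CM arrays. On the scale of signal + 16, Fbln2 was 90.6-fold higher in CP (log2 fold change 6.50, SE 0.14, adjusted p = 7.86e-14 by limma) and 76.6-fold higher in CM (log2 fold change 6.26, adjusted p = 4.99e-14) than in ES-LIF(+). The step from CP to CM was -0.24 on the log2 scale, with a 95% interval from -0.53 to 0.05 and an adjusted p of 0.201.

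Fbln5 encodes fibulin-5, which carries an RGD motif for integrins and guides tropoelastin and lysyl oxidases onto microfibrils. Its signals were 15.8, 95.5 and 73.9 in ES-LIF(+) and 89.1, 114.9 and 113.3 in ES-LIF(-) (1416164_at). In CP they were 1593.2, 1427.7 and 1521.4, and in CM 1509.7, 1650.2 and 1120.4. The ES arrays lay near or below their array medians, and the CP and CM arrays overlapped. Only 2 ES arrays exceeded the median, so the gene passed the filter only with CP or CM arrays, where it was high. Fbln5 was higher in CP by 4.48 on the log2 scale (SE 0.33, adjusted p = 6.24e-08 by limma) and in CM by 4.38 (adjusted p = 2.49e-08). With so dim a starting point the size depended on the value added before the logarithm: it was 4.93 with 1 added and 3.71 with 64 added in CP. The apparent difference between the ES stages, 0.83, did not pass (adjusted p = 0.132), and the step from CP to CM was -0.10 (95% interval -0.81 to 0.61).

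**Figure D2:**
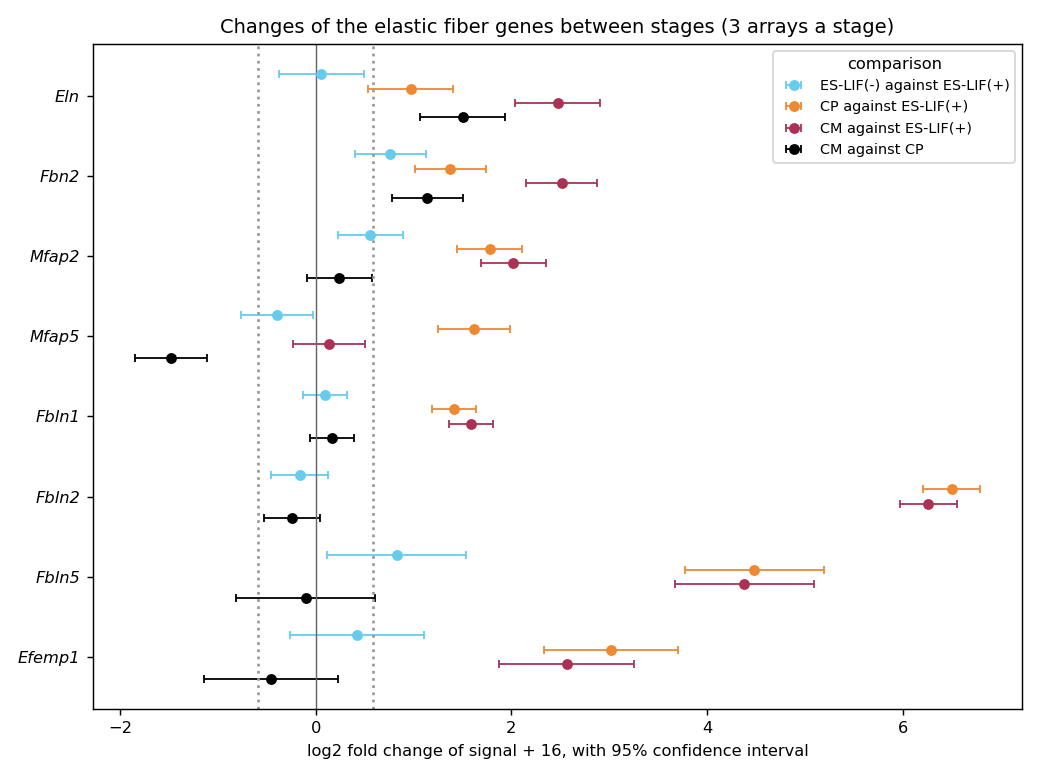
Log2 fold changes of signal + 16 for the 8 genes in 4 comparisons, with 95% confidence intervals from limma (3 arrays a stage) and dotted lines at 1.5-fold. The CM against CP interval lies above 0 for Eln and Fbn2, below 0 for Mfap5 and spans 0 for the other 5 genes.

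Fbln1 and Efemp1 rose in both CP and CM from levels already above the array median in ES cells. Fbln1 encodes fibulin-1, found in elastic fibers, basement membranes and plasma. It read 732.6, 608.0 and 641.9 in ES-LIF(+), 781.1, 608.9 and 733.1 in ES-LIF(-), 1889.9, 1815.3 and 1653.1 in CP, and 1934.6, 2075.7 and 2026.7 in CM (1451119_a_at). The ES stages overlapped, and the CM arrays lay just above the CP arrays. Fbln1 was 2.67-fold higher in CP and 3.0-fold higher in CM than in ES-LIF(+) (log2 fold changes 1.41 and 1.59, SE 0.11, adjusted p = 6.39e-08 and 5.93e-09 by limma). The step from CP to CM, 0.17 on the log2 scale, was within its error (95% interval -0.05 to 0.40, adjusted p = 0.242).

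Efemp1 encodes fibulin-3, a fibulin of loose connective tissue. Its signals spread widely over the ES arrays, at 117.5, 151.1 and 410.1 in ES-LIF(+) and 193.9, 262.0 and 375.2 in ES-LIF(-). In CP it read 1620.6, 1544.8 and 1967.5 and in CM 1235.7, 1323.8 and 1156.6 (1427183_at). All CP arrays were above all CM arrays, and both stages were above all ES arrays. Efemp1 was 8.11-fold higher in CP and 5.91-fold higher in CM than in ES-LIF(+) (log2 fold changes 3.02 and 2.56, SE 0.32, adjusted p = 2.42e-06 and 5.49e-06 by limma). From CP to CM the log2 difference was -0.46 (95% interval -1.14 to 0.23, adjusted p = 0.316).

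On their brightest probe sets the genes therefore split by measurement between CP and CM. Eln and Fbn2 were higher in CM and Mfap5 was lower in CM. For the other 5 no difference was detectable with 3 arrays a stage. The shares called in each direction among all tested probe sets were 8.7% higher and 9.47% lower. The CP and CM arrays did not overlap for 6 of the 8 genes, against 46.3% of all tested probe sets, including Fbln1, Fbln2 and Efemp1, which did not pass the test. Between ES-LIF(-) and ES-LIF(+) the arrays did not overlap for 3 of 8 (Fbn2, Mfap2 and Mfap5), against 27.7% of all, of which only Fbn2 was called. How many genes this comparison called moved between 0 and 3 when single arrays were left out, whereas leaving out any single array kept 8, 7 and 3 calls in the comparisons of CP with ES-LIF(+), CM with ES-LIF(+) and CM with CP.

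Probe sets of the same gene were compared where more than 1 was tested. For Eln, the dimmer 1420854_at read 31.8, 33.2 and 28.0 in ES-LIF(+), 42.8, 38.8 and 37.0 in CP and 371.3, 226.8 and 270.4 in CM. It exceeded the array median only on the 3 CM arrays and passed the filter only through them, so its higher CM signals are no further support for the rise of Eln. Its change from ES-LIF(+) to CP did not pass (0.24 on the log2 scale, adjusted p = 0.603 by limma), where the brighter probe set was called. The second Fbn2 probe set, 1422831_at, rose in the same order, by 1.63 in CP and 2.97 in CM relative to ES-LIF(+) (adjusted p = 6.46e-05 and 5.74e-08), and did not pass in ES-LIF(-) (0.48, adjusted p = 0.245). For Mfap5, 1449082_at read 301.6, 260.3 and 247.8 in CP against 134.8, 151.4 and 161.0 in CM, a log2 difference of -0.79 with an adjusted p of 0.0348. That probe set moved the same way as the brighter one from CP to CM, its ES-LIF(-) difference of 0.29 (adjusted p = 0.574) was of the opposite sign, and its CM against CP call was lost in every fit without 1 of the CP or CM arrays.

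For Mfap2, 1447833_x_at read 69.8, 78.5 and 67.9 in ES-LIF(+), 142.5, 110.7 and 138.7 in CP and 136.3, 253.6 and 246.1 in CM, and exceeded the array median on 4 of the 12 arrays, none of them ES arrays. Its difference between CP and ES-LIF(+) did not pass (0.73 on the log2 scale, adjusted p = 0.13 by limma), where the brighter 1417359_at was called at 1.78.

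For Fbln1 the 2 brightest probe sets gave different results between CP and CM. The dimmer 1422540_at read 463.5, 473.6 and 547.2 in CP and 221.4, 302.6 and 323.5 in CM. It was called lower in CM than in CP (log2 fold change -0.79, SE 0.27, adjusted p = 0.0333 by limma), where the brighter 1451119_a_at differed by 0.17. That call too was lost when CP replicates 1, 2 or 3 or CM replicates 1 or 2 were left out, with adjusted p up to 0.134. The log2 difference between the 2 probe sets was 2.78 ± 0.23 (SD, n = 3) in CM and 1.82 ± 0.22 (SD, n = 3) in CP. The gap of 0.96 had a two-sided exact permutation p of 0.1, the smallest that 3 arrays against 3 allow. Another Fbln1 probe set, 1439688_at, passed in none of the 4 comparisons. The platform annotation names both as Fbln1, the suffix _a_at marks probes shared by several transcripts of a gene, and which transcripts 1422540_at detects was not determined here. The second probe sets of Fbln2 and Fbln5 (1438375_at and 1446377_at) were above the array median on 0 arrays and were not tested, and averaging them in lowered the log2 change in CP from 6.50 to 3.35 for Fbln2 and from 4.48 to 2.31 for Fbln5.

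**Figure D3:**
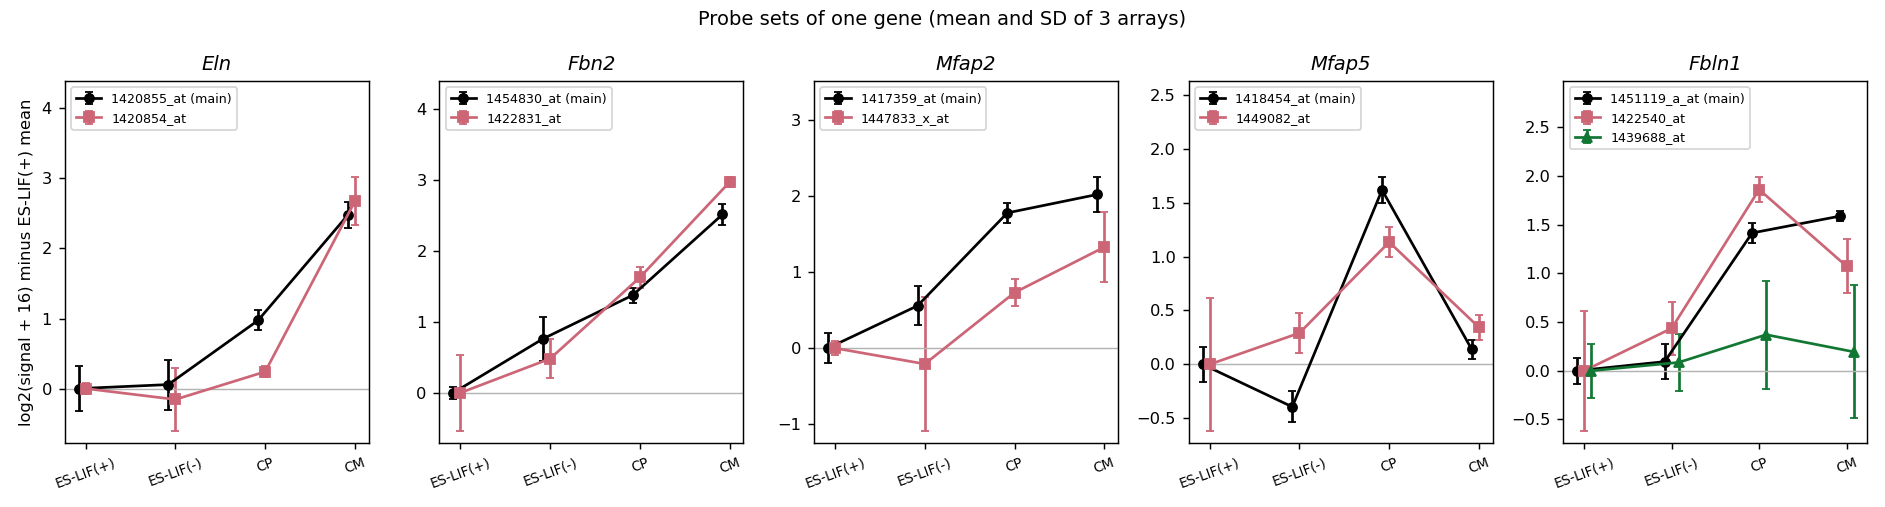
Mean log2(signal + 16) of each tested probe set of Eln, Fbn2, Mfap2, Mfap5 and Fbln1 by stage, relative to that probe set's own ES-LIF(+) mean; error bars are the SD of 3 arrays. The probe sets of Fbn2 rise over the same order of stages, those of Mfap5 both peak in CP but differ in sign in ES-LIF(-), and from CP to CM 1451119_a_at of Fbln1 moves by 0.17 and 1422540_at by -0.79.

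Other genes that build, process, degrade or bind elastic fibers were mostly higher in CP and CM than in ES-LIF(+). Of 39 genes listed, 31 were tested. In CP 26 rose and 1 fell relative to ES-LIF(+), against 19.3% higher and 11.6% lower among all tested probe sets. In CM 27 rose and 1 fell, against 26.2% and 21.6%. After LIF withdrawal 2 rose and 2 fell, against 3.19% and 3.77%, and from CP to CM 6 rose and 3 fell, against 8.7% and 9.47%. The same shares apply to the counts of each list below. With arrays centred on their medians these counts were 24 and 1, 25 and 1, 2 and 3, and 6 and 3. Of the 31, 7 exceeded the array median on fewer than 3 of the 6 ES arrays and so passed the filter only with CP or CM arrays, and 6 of these (Lox, Ltbp2, Emilin1, Mfap4, Adamtsl2 and Ctss) on none. Their folds against ES cells are set by dim signals and are not exact. Among the other 24 genes, a choice made after the values were seen, 21 rose and 1 fell in CP, 21 rose and 1 fell in CM, and 4 rose and 2 fell from CP to CM. The median log2 change over the 31 genes was 1.36 in CP and 1.94 in CM, beside 0.09 and 0.10 over all tested probe sets.

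The lysyl oxidases, which cross-link elastin and collagen, rose in 4 of 4 cases in both CP and CM. Lox had a signal of 43.9 ± 47.3 in ES-LIF(+), 17915 ± 1018 in CP and 9045 ± 746 in CM (SD, n = 3) (adjusted p = 1.91e-09 in CP and 2.37e-09 in CM by limma). Its ES signals were below the array medians, and the fitted log2 rises of 8.51 and 7.52 depend on the constant added. Loxl1, the family member that binds fibulin-5, rose from 207 ± 53.4 to 2687 ± 87.8 in CP and 1999 ± 162 in CM, by 3.63 and 3.20 on the log2 scale. Loxl3 and Loxl4 rose by 1.18 and 1.19 in CP; the rise of Loxl4 in CM, 0.80, was lost when arrays were centred on their medians.

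The latent TGFβ binding proteins (LTBPs), relatives of fibrillin of which some tether latent TGFβ to microfibrils, split 3 to 1. Ltbp1 rose by 2.68 in CP and 3.09 in CM on the log2 scale, and Ltbp3 by 2.72 and 2.54. Ltbp2 rose from 68.9 ± 14.2, below the array medians, to 326 ± 14.4 in CP and 212 ± 26.6 in CM (SD, n = 3). Ltbp4, which promotes elastin assembly with fibulin-5, went the other way: its signal was 2304 ± 308 in ES-LIF(+), 1165 ± 159 in CP and 606 ± 18.8 in CM (SD, n = 3). Its log2 change was -0.97 in CP and -1.89 in CM relative to ES-LIF(+), -0.90 after LIF withdrawal and -0.92 from CP to CM, each with an adjusted p of 0.000123 or less by limma.

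Among the other microfibril and elastic fiber associated proteins, 6 of 7 tested genes rose in CP and in CM. Bgn, the small proteoglycan biglycan, rose from 134 ± 22.0 to 14652 ± 1058 in CP and 8734 ± 960 in CM (SD, n = 3), by 6.62 and 5.87 on the log2 scale, and was lower in CM than in CP by 0.75 (log2 fold change -0.75, adjusted p = 0.000157 by limma). With median centring 5 of 7 were called in each stage, and Vcan, the proteoglycan versican, named here for that loss, was the one that dropped out. Mfap4, a microfibril-associated protein that binds elastin, rose from 9.97 ± 3.47, far below the array medians, to 494 ± 71.6 in CP and 148 ± 57.1 in CM (SD, n = 3), and fell from CP to CM (log2 fold change -1.68, adjusted p = 0.00113). Emilin1, a glycoprotein at the surface between elastin and microfibrils, rose from 20.1 ± 2.72, again far below the array medians, to 400 ± 36.9 and 578 ± 50.7, and Emilin2 rose by 1.85 and 2.33 on the log2 scale.

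All 5 tested genes of processing and microfibril regulation rose in both stages, and 3 of them rose again from CP to CM. Furin, the convertase that trims profibrillin, rose by 1.18 in CP, 2.69 in CM and 1.52 from CP to CM on the log2 scale (adjusted p = 5.73e-07 for the last, limma). Adamtsl2 and Adamtsl3, secreted ADAMTS-like proteins of which the first binds fibrillin and LTBPs, rose by 1.85 and 1.0 from CP to CM (adjusted p = 0.007 and 0.00982). Adamts10 rose by 1.36 in CP and 1.48 in CM, with a CP to CM difference of 0.12 that did not pass (adjusted p = 0.723).

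Enzymes that can degrade elastin rose in 4 of 6 cases in CP and in CM. The metalloproteinases Mmp2, Mmp14 and Mmp9 rose by 2.75, 2.06 and 2.37 in CP and by 2.68, 1.94 and 2.03 in CM on the log2 scale. The cathepsin Ctsl rose by 0.74 in CP, a call lost with median centring, and Ctss rose in CM, from 25.7 ± 21.4 in ES-LIF(+), below the array medians, to 201 ± 39.7 (SD, n = 3, adjusted p = 0.000826 by limma). Of the integrin subunits that bind the RGD motif, 4 of 5 rose in CP and all 5 in CM. Itgav rose by 1.32 and 1.90, Itgb1 by 1.41 and 1.90 and Itgb5 by 1.18 and 1.28. Itga5 and Itga8 rose from CP to CM by 1.13 and 1.35 (adjusted p = 7.02e-06 and 0.000458), and Itga8 did not pass in CP (0.02).

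**Figure D4:**
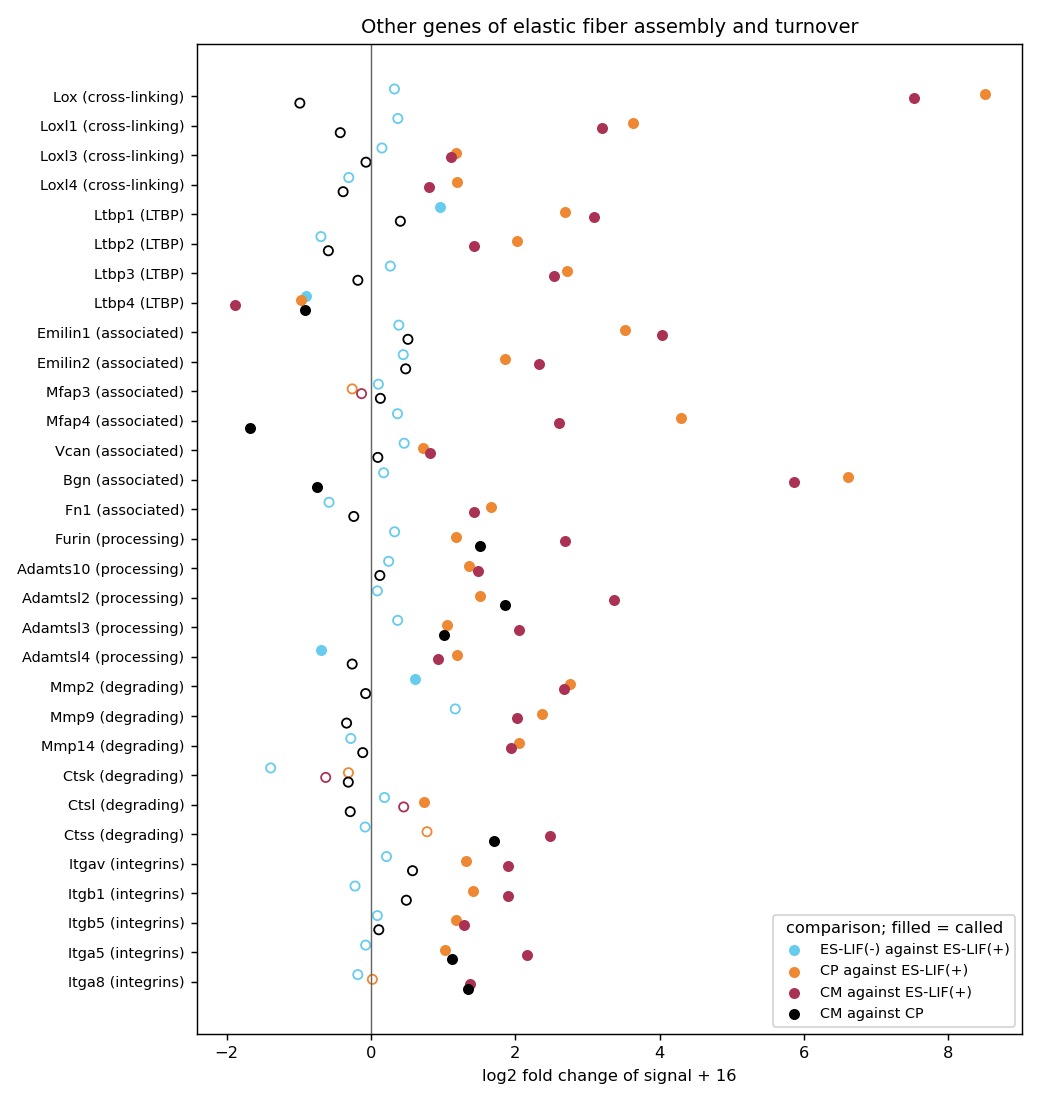
Log2 fold changes of signal + 16 for the 31 tested genes of elastic fiber assembly and turnover in 4 comparisons, with each gene's list in brackets; filled points passed the adjusted p and fold thresholds. Lox and Bgn stand farthest to the right in CP (8.51 and 6.62), and Ltbp4 is the only gene with filled points left of 0 in CP and CM.

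For each of the 8 genes the closest profiles among 13144 other genes were sought by the root mean square difference of log2 values over the 12 arrays, each gene centred on its own mean. Fbln2 was closest to Bgn (0.343) and to Col1a1, a chain of type I collagen (0.353). Col1a1 read 374 ± 102 in ES-LIF(+), 26577 ± 1703 in CP and 20890 ± 1073 in CM (SD, n = 3). Efemp1 was closest to Col5a1, a chain of type V collagen (0.335), and to Frem1, a basement membrane protein (0.349). Fbln5 was closest to Gas1 (0.326) and to Grem1, a secreted BMP antagonist (0.344). The nearest profiles of the other 5 genes differed from them by less, at 0.118 to 0.259. The difference is not scaled to the size of a gene's changes, so these values do not rank the genes by likeness.

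Fbln1 was nearest to Lrp10 (0.118) and Ckap4 (0.120), and Mfap2 to H13 (0.166) and Plscr3 (0.169). Fbn2 was nearest to Ier5 (0.187) and Celf2 (0.209), and Eln to Nbea (0.218) and Cst3, the secreted protease inhibitor cystatin C (0.234). Mfap5, with its signal high in CP alone, was nearest to S100a16 (0.210), which read 451 ± 17.6 in ES-LIF(+), 1137 ± 92.0 in CP and 520 ± 106 in CM (SD, n = 3). Changes common to all genes of a stage enter these values, and they are a description over 12 arrays.

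The stage labels were read against marker genes. Among all tested probe sets, 19.3% were called higher and 11.6% lower in CP than in ES-LIF(+), and 26.2% and 21.6% in CM. From CP to CM the shares were 8.7% higher and 9.47% lower. These shares apply to all counts of marker genes below. The summed signal of 6 pluripotency genes ran from 52977 to 54675 in ES-LIF(+), 31703 to 35239 in ES-LIF(-), 30632 to 31974 in CP and 7220 to 9895 in CM. In CP 5 of the 6 were lower than in ES-LIF(+) and in CM all 6, and Nanog, Zfp42 and Esrrb read 3418, 3781 and 573 in ES-LIF(-) and 6268, 8119 and 2224 in CP. The sum of 7 cardiomyocyte genes ran from 522 to 742 in ES-LIF(+), 1339 to 1574 in CP and 83973 to 97959 in CM, and Ttn, Ryr2 and Nkx2-5 were below the array median on every CP array. In CP 2 of the 7 rose, Tnnt2 and Myl7, to 514 and 455, and Ttn was called lower (log2 fold change -0.98, adjusted p = 0.0268 by limma). In CM all 7 rose. Tnnt2 and Ryr2 were below the array median on every ES array. Tnnt2 passed the filter only with CP or CM arrays and Ryr2 only through CM.

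Markers of other cells that make elastic fibers were mostly higher in CP and CM than in ES-LIF(+), as were the 8 genes except Mfap5 in CM. The sum of 8 fibroblast and mesenchyme genes ran from 890 to 1254 in ES-LIF(+), 921 to 1423 in ES-LIF(-), 51224 to 55821 in CP and 34773 to 37242 in CM. Col1a1 and Col3a1 made up most of it in CP (26577 and 20165) and CM (20890 and 10631). Of 7 tested genes, 6 rose in CP and all 7 in CM. Pdgfra, Pdgfrb and Postn were below the array median on every ES array and passed the filter only with CP and CM arrays. Fap did not pass it and was not tested. The sum of 6 smooth muscle genes ran from 4125 to 5355 in ES-LIF(+), 4794 to 5530 in ES-LIF(-), 29804 to 34131 in CP and 60234 to 69309 in CM. Acta2 and Tagln made up most of it in CP (19559 and 10525) and CM (33982 and 24837). Of the 6 genes, 5 rose in CP and all 6 in CM. Myh11 and Lmod1, the most restricted to smooth muscle, were below the array median on all ES and CP arrays and above it in CM. Both passed the filter only through CM. From CP to CM, where Eln and Fbn2 rose, 5 of 6 smooth muscle and 7 of 7 cardiomyocyte genes rose. So did 3 of 5 tested endothelial and 2 of 2 tested erythroid genes. These counts include Myh11, Lmod1, Ryr2 and Hbb-bh1, which were tested only because of their CM signals. Over the same step, where Mfap5 fell, 2 of 7 fibroblast genes fell (Thy1 and Col3a1), 0 rose, and the values of Pdgfrb and Tcf21 were 0.17 and 0.19 higher on the log2 scale without passing. All 6 pluripotency genes fell, and of 5 tested extraembryonic endoderm genes 2 fell and 1 rose. Of the mesothelial genes 1 of 5 fell, Msln, which passed the filter only through its CP signals. The part of these cells in the results was not tested.

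Markers of the remaining cell types were read in the same way. Mesothelial genes summed to 1595 to 3518 in ES-LIF(+), 8721 to 9234 in CP and 4184 to 4762 in CM, with 3 of 5 higher in both, and Msln was below the array median on every CM array. The endothelial sum ran from 1213 to 1822 in ES-LIF(+), 1150 to 1434 in CP and 1832 to 2290 in CM, with 2 of 5 tested genes higher and 2 lower in CP and 3 higher and 2 lower in CM. Extraembryonic endoderm genes summed to 975.0 to 1147 in ES-LIF(+), 3371 to 3717 in CP and 2632 to 3971 in CM. Afp was below the median throughout. In CP and in CM 3 of 5 tested genes were higher, and Lama1 was lower in CM (log2 fold change -1.71, adjusted p = 3.56e-06 by limma). Cdh5, Emcn, Msln and Ttr were below the array median on every ES array and passed the filter only with CP or CM arrays. For Sox17 and Upk3b too few ES arrays exceeded the median, so both also passed only with CP or CM arrays. The counts of higher genes above include Cdh5, Emcn, Msln, Upk3b and Sox17 in CP and in CM, and Ttr in CM. The erythroid sum of 4 genes reached 570 to 17672 in CM and at most 193 elsewhere, a spread that sets the CM arrays apart from each other. Their part in the results was not tested. The counts of called elastic fiber genes in CM were the same without any 1 of the CM arrays.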

How the data were processed

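The 4 stages (ES-LIF(+), ES-LIF(-), CP and CM) were each hybridised to 3 Affymetrix Mouse 430 2.0 arrays, 12 in all. The deposited intensity values are the authors' MAS5 signals on a linear scale, 1 per probe set, already scaled by the authors so that every array has nearly the same trimmed mean (497 after leaving out 2% at each end); detection flags were not used. The file holds 45101 probe sets, of which 64 controls were left out. Probe sets were named from the platform annotation, where 34945 name 1 gene, 932 name several and 9160 name none. Signals were taken to log2(signal + 16), probe sets above the array median on at least 3 arrays were kept (26083), and a model with the 4 stages was fitted to all 12 arrays with limma 3.58.1 in R 4.3.3 (eBayes with an intensity trend, Benjamini-Hochberg adjustment). The steps were tested on simulated data.

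The genes and lists were chosen with earlier results of these data known. Values are given for every measured member and its tested probe sets where these bear on a result. From the lists of related genes, the called genes with the largest change were named, up to 4 of each list in each of CP against ES-LIF(+), CM against ES-LIF(+) and CM against CP, and 2 nearest profiles for each member. The replicate numbers of the labels did not pair the arrays: deviations of same-numbered arrays from their stage means correlated at -0.05 to 0.10 over 18 pairs. Promoter sequences are from RefSeq (GRCm38.p6). Alternatives covered scaling, the added constant, the filter, the variance model, the stages fitted, the probe set of a gene, blocks and single arrays left out. The accession block grouped the arrays by runs of neighbouring deposit numbers, 1 to 3. CP replicate 1 was in run 2 and CP replicates 2 and 3 in run 3, while each other stage had arrays in every run. The labels do not say whether the runs were processed apart.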

Additional observations from a re-analysis of the deposited data

How the results depend on the processing

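Of 1192 log2 fold changes of single genes or probe sets recomputed under the alternatives, 1150 kept their direction and their side of the thresholds, 19 lost the call, 7 gained one and 16 changed sign, and 0 of those 16 were called under either setting. The counts of called elastic fiber genes in CP and in CM against ES-LIF(+) were 8 and 7 in all alternatives except the filter on all 12 arrays, which drops Fbln5 (7 and 6), and CM against CP gave 3 in all. After LIF withdrawal the count of 1 became 0 when only the 2 stages were fitted and 2 by adjusted p alone (Fbn2 and Mfap2), and ranged from 0 to 3 with single arrays left out: it was 2 without ES-LIF(+) replicate 2 (Fbln5 added), 3 without ES-LIF(+) replicate 3 (Mfap2 and Efemp1 added), 0 without ES-LIF(-) replicate 2 and 2 without ES-LIF(-) replicate 3 (Mfap2 added). Over all tested probe sets, the filter on all 12 arrays, which tests fewer probe sets, left 5049 calls in CP and 7980 in CM against ES-LIF(+) and 2800 in CM against CP, where the counts were 8061, 12449 and 4737. By adjusted p alone there were 12338 in CP, 3157 in ES-LIF(-) and 8535 in CM against CP. Quantile normalization set the share of higher calls at 47.7% in CP and 44.6% in CM.

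Signs turned as follows, and the cause was not tested. Mfap5 in CM against ES-LIF(+) became -0.18 with median centring and -0.22 with quantile normalization. Eln in ES-LIF(-) became -0.049 as a mean over probe sets and ran from -0.10 to 0.25 with single arrays left out. In CM against CP, Fbln1 became -0.26 and Fbln5 0.060 as a mean over probe sets, and Fbln5 was also 0.060 with the accession block and ran from -0.22 to 0.061 with single arrays left out. Eln by 1420854_at in CP became -0.043 with median centring. Fbln1 by 1439688_at in CM against ES-LIF(+) became -0.12 with median centring and -0.15 with quantile normalization and ran from -0.024 to 0.59 with single arrays left out, and in CM against CP from -0.49 to 0.22. With the replicate block, which rests on numbers that did not pair the arrays, the elastic fiber counts stayed at 8, 7, 1 and 3 and all probe sets called at 8054, 12415, 1813 and 4708. Signals near or below the array median limit the folds of Fbln5, Lox, Ltbp2, Emilin1, Mfap4, Adamtsl2 and Ctss against ES cells and of Eln by 1420854_at and Mfap2 by 1447833_x_at.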
